A study of Mus musculus with 36 samples.

Results

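Theta-burst stimulation was compared with a sham procedure in hippocampal slices of wild-type mice that had received BD10-2. The libraries were those whose labels give the genotype WT and the treatment PTX-BD10-2, and they made up 8 of the 36 libraries of the series. Libraries with the same mouse and stimulation labels were added, which left 6 of 32 samples, from 4 of 18 mice. Sham slices came from Mouse1565, Mouse1571 and Mouse1590, and stimulated slices came from Mouse1565, Mouse1571 and Mouse1586. Mouse1565 and Mouse1571 gave a slice to each side.

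All 4 mice were wild-type animals of the C57BL/6 strain. They took BD10-2, named in the series title as a TrkB and TrkC partial agonist, by oral gavage over 3 months, from 13 to 16 months of age, so both sides of the comparison carry the drug. Slices were dissected from the right hippocampus, and each stimulated slice was given 3 rounds of theta-burst stimulation. A round had 10 bursts spaced 200 ms apart, and a burst had 4 stimuli at 100 Hz. Sham slices were handled for as long without stimulation, and all slices were flash frozen at once. Further groups used below are wild-type mice given vehicle, with 4 sham and 4 stimulated samples, and T41B mice given BD10-2, with 5 of each. T41B mice express mutant human APP (London and Swedish changes) from a Thy1 transgene. The time a slice spent outside the animal and the sex of the mice are not given in the sources used here. Bulk RNA of a slice holds neurons, glia, vessels and any meninges together, so fewer cells of a type and less RNA per cell cannot be told apart.

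Theta-burst stimulation is a pattern of short, fast bursts that is widely used to induce long-term potentiation, a lasting gain in synaptic strength, in hippocampal slices. Neuronal firing opens calcium entry and switches on immediate early genes such as Fos, Arc and Egr1, while release of BDNF onto its receptor TrkB supports the late phase of potentiation. Microglia, the resident macrophages of the brain, sense purines and damage signals through surface receptors and can answer with NF-kappaB activity, which turns on interleukin-1, TNF and chemokines, and with type I interferon, which acts through STAT2 and IRF9, among other factors, on a large set of antiviral genes. In the resting state microglia are known by a set of identity genes that includes Tmem119, P2ry12 and Cx3cr1.

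The 8 libraries held 15451775 to 28125795 expected counts (median 18832112), and mitochondrial genes took 2.84% to 4.84% of them. Thy1, whose promoter drives the transgene of T41B mice, lay between 253 and 374 CPM (counts scaled to a common library size) in all 8 libraries. The sham libraries of Mouse1565 carry the same labels but differed with a chi-square of 28.9 when divided by its degrees of freedom, more than any pair of sham libraries of different mice (8.23 to 26.6), and the library that came second was closest to that of Mouse1590 (8.23). Prox1, a transcription factor of dentate granule cells, was at 188 and 80.9 CPM in those libraries, while Il1b was at 0.249 and 0.537 CPM and Tmem119 at 18.4 and 15.7 CPM. Without the library that came second 1710 genes were called in the main comparison, against 1727 with it. The stimulated libraries of Mouse1586 differed by 7.44, against 11.6 to 20.5 between mice. By the batch labels, Mouse1565 and Mouse1571 belonged to batch I, the sham slice of Mouse1590 to batch D and the stimulated slice of Mouse1586 to batch B, so only batch I holds both sides.

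The main change after stimulation was a rise of inflammatory and interferon-induced genes together with a fall of microglial identity genes, while most neuronal, synaptic and neurotrophin genes did not pass the test. Of 19478 genes tested, edgeR called 1727 at an adjusted p under 0.05, which is 8.87% of genes. Of these, 1225 genes (6.29%) were higher after stimulation and 502 (2.58%) were lower. Counts of list members called in the main test, given below, stand against these shares. The median log2 fold change was 1.0 among genes called higher, with 286 above 2, and −0.71 among genes called lower, with 49 below −2. Over all genes tested the median was −0.01. For 3445 genes (17.7%) the 3 stimulated values all lay above the 3 sham values, and for 2965 genes (15.2%) all lay below. Among called genes this held for 1216 of the 1225 and 495 of the 502, and both slices of Mouse1565 and Mouse1571 moved in the called direction for 1220 and 501. Without the sham slice of Mouse1590 the test called 915 genes, without the stimulated slice of Mouse1565 it called 1092, and with the mouse as a replicate block it called 1286. In batch I alone, which holds only Mouse1565 and Mouse1571 of this comparison, 3000 of 18352 genes were called with the mouse as a block. That fit estimates its spread from these 2 mice alone. Its counts and p-values, here and below, are therefore less certain than those of the main test. Each sample is a slice of 1 mouse, and the main test takes its spread from all 32 samples. It treats the slices of Mouse1565 and Mouse1571 as independent, though the correlation within a mouse was 0.339 by limma voom. The tests with the mouse as a replicate block compare slices within a mouse.

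**Figure D1:**
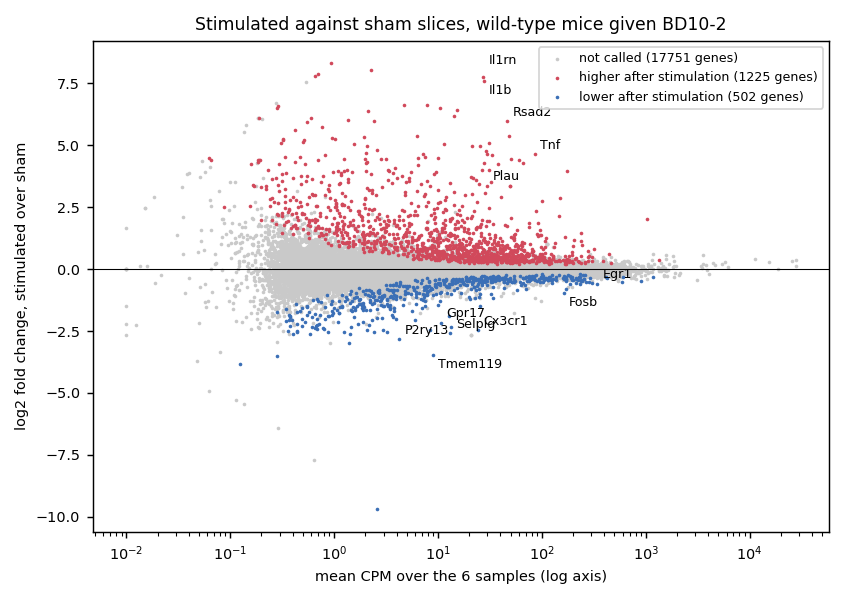
The plot sets the log2 fold change of stimulated over sham slices against the mean CPM over the 6 samples (log axis) for each of 19478 genes tested, with red points for genes called higher, blue for genes called lower and grey for the rest. The 1225 red points reach far larger fold changes than most of the 502 blue ones, with labelled cytokine genes near the upper edge and labelled microglial genes near the lower edge, and the lowest blue point is 1 of 2 overlapping entries of the small nucleolar RNA Rnu3a.

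Interleukin-1 genes were among the most strongly raised. Il1b (chr2:129364570-129371139, minus strand, GRCm38), which encodes the secreted inflammatory cytokine interleukin-1 beta, was at 0.374, 0.209 and 0.108 CPM in the sham slices of Mouse1565, Mouse1571 and Mouse1590 and at 46.9, 60.4 and 57.1 CPM in the stimulated slices of Mouse1565, Mouse1571 and Mouse1586. Every stimulated slice was far above every sham slice, and the log2 fold change was 7.60 (SE 0.65, adjusted p = 4.14e-09 by edgeR). Il1rn, whose product blocks the interleukin-1 receptor, was at 0.335, 0.209 and 0.0541 CPM in sham and 38.9, 69.0 and 55.5 CPM in stimulated slices. Thus the agonist and its antagonist both rose from near the detection limit, and the log2 fold change of Il1rn was 7.77 (SE 0.85, adjusted p = 2.45e-07 by edgeR). Il1a, the other agonist, was already detectable in sham slices at 26.2, 30.3 and 22 CPM and reached 157, 192 and 181 CPM. Il1a rose by a log2 fold change of 2.75 (SE 0.34). Of 9 tested members of the family, these 3 were called. The receptor subunits Il1r1 (log2 fold change 0.33) and Il1rap (0.25), and the cytokine Il33 (0.14), did not pass the test. The list's median was 0.33.

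Other cytokines followed the same direction. Tnf (chr17:35199381-35202007, minus strand), the founding member of the tumour necrosis factor family, was at 6.18, 7.41 and 6.28 CPM in sham slices and 108, 236 and 153 CPM in stimulated slices. The stimulated slice of Mouse1571 was highest, the groups were far apart, and the log2 fold change was 4.65 (SE 0.38, adjusted p = 1.7e-09 by edgeR). Il12b, which encodes a subunit that IL-12 and IL-23 share, went from 0.157, 0.261 and 0 CPM to 4.66, 29.4 and 12.3 CPM, a wide spread among stimulated slices. Its log2 fold change was 6.64 (SE 0.90). Ifnb1, the interferon beta gene, had 0, 0.157 and 0 CPM in sham slices, at or below 3 counts in each sample. It reached 2.39, 2.48 and 3.10 CPM, which is at least 21.1-fold higher than 3 counts per sample, a limit worth 0.126 CPM on average in the sham slices. Il10, which encodes an anti-inflammatory cytokine, was at 0 in all 3 sham slices and at 1.78, 1.05 and 2.81 CPM after stimulation, at least 14.9-fold higher by the same limit. Of 17 tested cytokines, 13 were called higher and none lower, with a median log2 fold change of 4.00 (3.55 with Il10, Il27 and Ifnb1 at their bounds and without Il23a and Ifng, which were within 3 counts on both sides). Lif and Il11, both of the interleukin-6 family, rose by 4.00 (SE 0.45) and 4.19 (SE 0.39), and Il6 itself by 3.55 (SE 0.56). Ifng, the T-cell and natural killer cell interferon, was within 3 counts in all 6 samples.

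Promoter sequences are shown for the 3 genes among the 12 named as most raised whose window of 250 bases before the RefSeq start (GRCm38.p6) holds the NF-kappaB consensus. Of the 12 genes, 10 had a promoter in the RefSeq table. Capitals mark the bases covered by the consensus on either strand, overlapping matches included, and the sequences run 5′ to 3′ on the gene's own strand. Oasl1 lies at chr5:114922990-114923239 (plus strand), Ifnb1 at chr4:88522795-88523044 (minus strand) and Cxcl2 at chr5:90903649-90903898 (plus strand).
Oasl1: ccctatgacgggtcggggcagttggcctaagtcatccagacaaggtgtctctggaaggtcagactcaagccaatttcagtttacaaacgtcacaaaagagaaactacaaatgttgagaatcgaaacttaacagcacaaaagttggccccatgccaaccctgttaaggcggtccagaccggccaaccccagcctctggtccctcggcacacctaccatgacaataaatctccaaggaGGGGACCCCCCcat
Ifnb1: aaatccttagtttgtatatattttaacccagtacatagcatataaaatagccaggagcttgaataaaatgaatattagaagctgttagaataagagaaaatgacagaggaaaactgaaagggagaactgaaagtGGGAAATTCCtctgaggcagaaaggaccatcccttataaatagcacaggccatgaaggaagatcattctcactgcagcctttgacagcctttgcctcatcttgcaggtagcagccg
Cxcl2: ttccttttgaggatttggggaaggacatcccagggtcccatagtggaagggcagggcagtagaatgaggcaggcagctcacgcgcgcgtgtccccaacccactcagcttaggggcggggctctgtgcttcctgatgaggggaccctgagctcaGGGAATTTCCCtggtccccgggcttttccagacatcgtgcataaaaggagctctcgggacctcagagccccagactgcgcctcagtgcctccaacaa
The Oasl1 window held 3 overlapping matches, between 14 and 4 bases before the start. In Ifnb1 the match lay 116 to 107 bases before the start, and in Cxcl2 a pair of overlapping matches spanned 97 to 87 bases before it. A match is a description of the letters and was not tied to binding.

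Over the full windows of 250 bases before to 50 after a start, the NF-kappaB consensus occurred in 6.93% of 32851 promoters in the table, 8.39% of those of genes tested, 12.1% of those of genes called higher and 8.45% of those of genes called lower. The AP-1 motif TGANTCA was present in 7.81%, 5.42%, 10.3% and 4.57% of the same sets, and the interferon-response motif GAAANNGAA in 8.56%, 7.36%, 11.6% and 6.62%. For the cAMP-response motif TGACGTCA the shares were 1.79%, 2.77%, 2.15% and 2.05%, and for the E-box CACGTG 7.15%, 9.22%, 9.36% and 7.76%. Motifs were sought on both strands, and a gene could have several starts. Among the raised genes Mmp3, Il1rn and Rsad2 had an AP-1 match, Ifi205 and Rsad2 an interferon-response match, and Il1b, Il12b and Acod1 none of the 5 motifs.

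Interferon-induced genes rose almost without exception. Of 20 tested, 19 were called higher, against 6.29% of all genes, and the median log2 fold change was 3.25. Rsad2, which encodes the antiviral enzyme viperin, was at 1.59, 1.41 and 1.19 CPM in sham slices and 77.7, 107 and 90.1 CPM in stimulated slices. The sham values were tight, the stimulated values all stood well above them, and the log2 fold change was 5.99 (SE 0.67, adjusted p = 4.06e-07 by edgeR). Oasl1 (gene at chr5:114923240-114937915), a member of the oligoadenylate synthetase family that restrains interferon production, went from 0.335, 0.470 and 0.216 CPM to 28.8, 29.8 and 31.2 CPM. The stimulated slices of Oasl1 differed little from one another, and its log2 fold change was 6.44 (SE 0.67, adjusted p = 1.05e-07 by edgeR). Mx1, which encodes an antiviral dynamin-like GTPase, was within 3 counts in each sham slice and at 3.12, 6.26 and 4.96 CPM after stimulation, at least 37.96-fold higher. Ifi205, of a family of nuclear DNA sensors, went from 0.0787, 0 and 0 CPM to 3.69, 5.39 and 3.60 CPM. Ifi205 sits in a cluster of near-identical genes, so its share of reads is uncertain. With limma voom and a random mouse block, Ifi205 (adjusted p = 0.146) and Mx1 (0.0914) were not called.

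Among the transducers of the interferon signal, Stat2 (1.19) and Irf9 (1.13) rose by about the same log2 fold change, while Irf7, the amplifier of the loop, rose by 3.15 (SE 0.60). Ifit1, which binds foreign RNA, rose by 5.08 (SE 0.55), and Isg15, a ubiquitin-like modifier, rose by 4.66 (SE 0.58). Bst2, which tethers virus particles, was the member not called, at 1.34, 1.36 and 2.06 CPM in sham and 1.58, 2.85 and 2.01 CPM in stimulated slices. The count of called members ran from 17 to 19 over 21 other ways of running the test.

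Chemokines, the secreted attractants of leukocytes, gave 15 of 23 tested members called higher and 1 called lower, with a median log2 fold change of 3.09 (2.49 with Ccl11, Cxcl3 and Cxcl11 at their bounds). Cxcl2 (gene at chr5:90903871-90905938), a neutrophil attractant, was at 2.36, 2.82 and 1.46 CPM in sham slices and 77.7, 129 and 77.9 CPM in stimulated slices. Stimulated slices of Mouse1565 and Mouse1586 were nearly equal and that of Mouse1571 higher, with a log2 fold change of 5.40 (SE 0.54, adjusted p = 5.38e-08 by edgeR). Ccl5, which attracts T cells and monocytes, went from 0.433, 0.418 and 0.216 CPM to 25.5, 27.7 and 30.9 CPM (log2 fold change 6.19, SE 0.65). Ccl9, Ccl2, Ccl4 and Cxcl10 rose by 4.66, 4.28, 4.40 and 4.27. Ccl3, which attracts macrophages, was at 21.9, 30.4 and 9.47 CPM in sham slices and at 254, 391 and 331 CPM after stimulation. Cxcl12, a chemokine of vessels and meninges, fell by 0.79 (SE 0.22, adjusted p = 0.0189 by edgeR), and this call was lost when the stimulated slice of Mouse1586 (adjusted p = 0.165) or the sham slice of Mouse1565 (0.0762) or Mouse1571 (0.0804) was left out. Without both slices of Mouse1565, 10 chemokines were called higher. Of 8 tested chemokine receptors, Ccr7 (log2 fold change 5.33) and the decoy receptor Ccrl2 (1.66) rose, and Cx3cr1 fell.

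**Figure D2:**
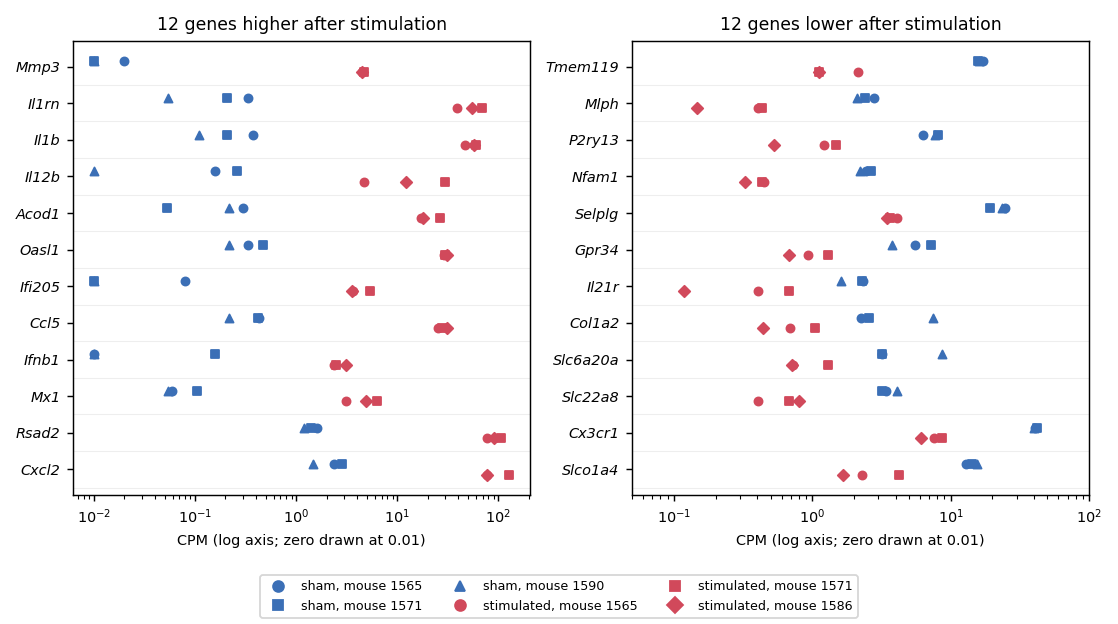
The plot gives the CPM (log axis, zero drawn at 0.01) of 12 genes called higher and 12 called lower in each of the 6 samples, with blue marks for sham, red for stimulated slices and 1 symbol per mouse. For all 24 genes the red and blue marks do not overlap, a condition of their choice. The distance is wide for Il1rn and Il1b, while that of Mmp3 rests on sham values within 3 counts and on zeros drawn at 0.01.

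The NF-kappaB pathway, the transcription factor route that drives many of these cytokines, had 12 of 18 tested members called higher and none lower, with a median of 1.03. Its feedback inhibitors rose: Tnfaip3, which encodes the ubiquitin-editing enzyme A20, went from 30.1, 28.6 and 27.4 CPM to 127, 171 and 147 CPM. The sham values lay within a narrow range and all stimulated values were above them, with a log2 fold change of 2.37 (SE 0.22, adjusted p = 1.8e-08 by edgeR). Nfkbia, which encodes the inhibitor that holds NF-kappaB in the cytoplasm, rose by 1.38 (SE 0.16). The subunit genes Nfkb2 (1.75), Relb (1.34), Nfkb1 (1.06) and Rela (0.96) rose, whereas Rel had a log2 fold change of −0.27 and was not called. This count was 12 in every test with 1 sample, mouse or library left out.

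The acute-response list, which includes STAT3 and C/EBP signalling genes and inflammatory enzymes, gave 13 of 17 called higher. Acod1, which makes the immunometabolite itaconate in activated macrophages, was at 0.295, 0.0522 and 0.216 CPM in sham slices and 17.4, 26.8 and 18 CPM after stimulation, with no overlap (log2 fold change 6.5, SE 0.78, adjusted p = 1e-06 by edgeR). Stat3 rose by 1.24 (SE 0.16), its inhibitor Socs3 by 1.12 (SE 0.21), Cebpd by 1.37 (SE 0.21) and the oncostatin M receptor gene Osmr by 1.58 (SE 0.33). Ptgs2, which encodes the inducible prostaglandin synthase COX-2, rose by 1.87 (SE 0.39) and Ptges, the next enzyme of that route, by 2.33 (SE 0.35). Nos2, the inducible nitric oxide synthase, was at 0.568, 0.620 and 1.06 CPM after stimulation and was not called.

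Upstream sensors moved less evenly, and their counts stand against 6.29% of all genes called higher and 2.58% called lower. Of 14 pattern receptors and adaptors, 6 were called higher, led by Cd14 (log2 fold change 2.92, SE 0.30), the co-receptor for bacterial lipid, with Tlr2 at 2.03 and Myd88 at 1.27, and the list's median was 0.49. In the inflammasome list, which covers the machinery that cleaves interleukin-1 beta, 2 of 9 members were higher and 3 lower. Nlrp3 rose by 1.45 (SE 0.21) and Casp4 by 1.83 (SE 0.33). The adaptor gene Pycard fell by 1.69 (SE 0.32), Nlrp1b by 2.32 (SE 0.47) and Casp1 by 1.52 (SE 0.39), and Casp1 was not called without the sham slice of Mouse1590 (edgeR adjusted p = 0.0906) or with the replicate block (0.104). In the complement list, 2 of 12 rose and 3 fell. In batch I alone with the replicate block 5 of the 10 tested fell, where 1270 of all 18352 genes were called lower. In the main test of that list, both sides held receptor genes or components. The receptor genes C5ar1 (1.87) and C3ar1 (1.49) were higher, while C1qa (−1.19) and Itgam (−1.11) were among those lower.

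Antigen presentation by class I molecules had 6 of 11 members called higher and all 11 log2 fold changes above 0, with a median of 1.11. Nlrc5, the transcriptional activator of class I genes, rose by 2.69 (SE 0.46), Tap1, the peptide transporter, by 2.39 (SE 0.37), H2-Q4 by 1.99 (SE 0.36) and H2-D1 by 1.16 (SE 0.32). In batch I alone with the replicate block 10 were called. Only 3 members were called without the sham slice of Mouse1565 or without that of Mouse1571, and these genes share sequence with near-identical relatives. Of 10 class II and costimulation genes, the costimulators Cd40 (3.08) and Cd86 (1.45) rose in edgeR, and DESeq2 called 3 of the list higher. Cd40 was not called with limma voom and a random mouse block (adjusted p = 0.151).

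Proteases and matrix genes were raised more broadly than most groups. Of 16 tested, 13 were called higher, a count that did not change when a sample, mouse or library was left out, and the median log2 fold change was 2.68 (2.67 with Mmp3, Mmp10 and Timp1 at their bounds). Plau (chr14:20836660-20843385, plus strand), which encodes the plasminogen activator urokinase, had a smaller adjusted p than any other gene named here. Its values were 5.29, 5.95 and 4.38 CPM in sham slices and 46.3, 66.3 and 50.6 CPM in stimulated slices, with a log2 fold change of 3.38 (SE 0.26, adjusted p = 7.32e-10 by edgeR). The stimulated values of Plau all exceeded the highest sham value several times over. Its receptor gene Plaur rose by 2.01 (SE 0.28). Mmp3, which encodes the matrix protease stromelysin, was within 3 counts in the sham slices and at 4.46, 4.71 and 4.46 CPM after stimulation, at least 36.1-fold higher. Tnc, a matrix glycoprotein of injured tissue, rose by 2.98 (SE 0.35), and Adamts4, a protease that cuts proteoglycans, rose by 1.69 (SE 0.25).

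**Figure D3:**
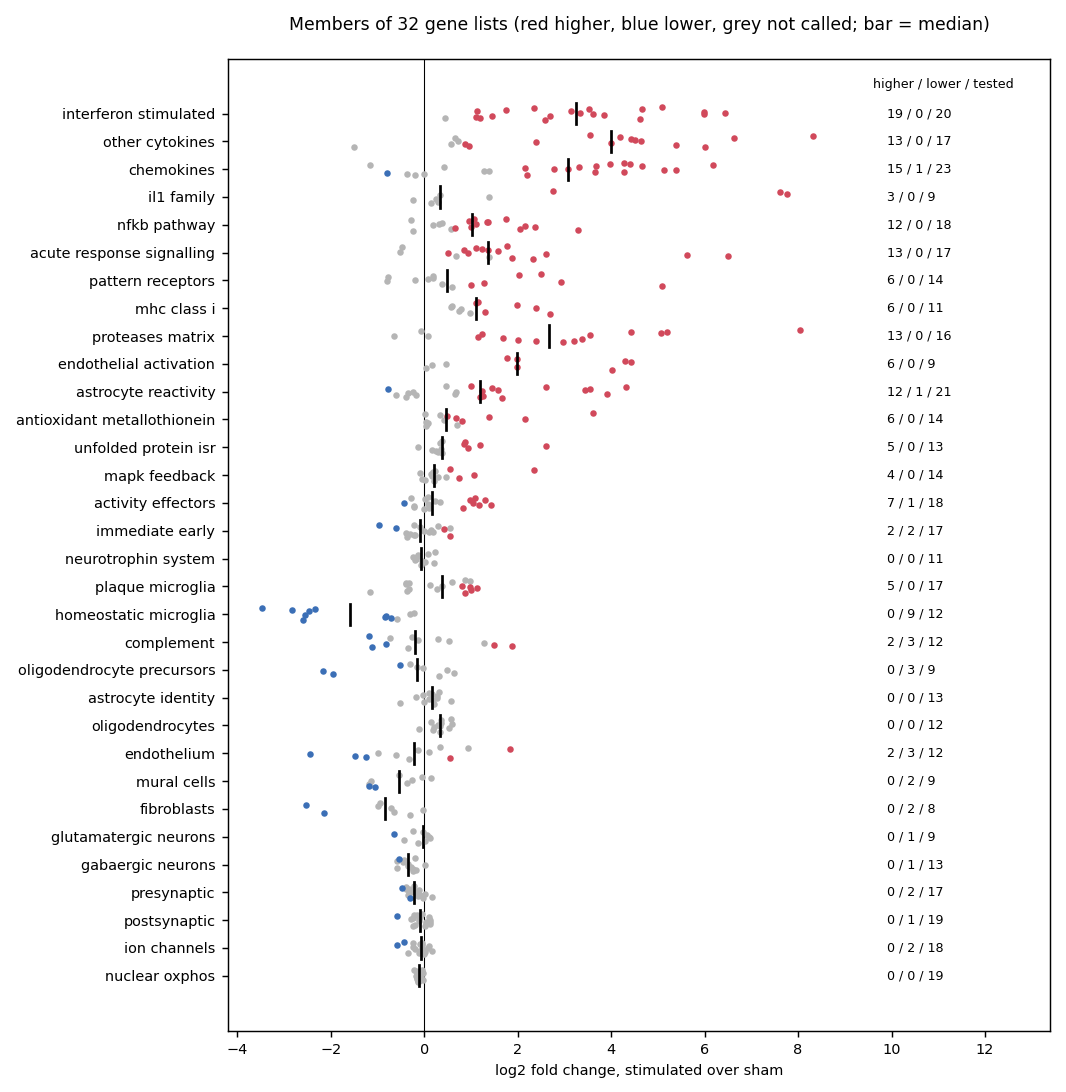
Each row of the plot is a gene list, each point a tested member at its log2 fold change of stimulated over sham slices, red if called higher, blue if called lower and grey if not called, with a black bar at the list's median and the counts at the right. Immune, protease and endothelial activation lists extend to the right, the homeostatic microglia list lies to the left with 9 of 12 members called lower, and synaptic, channel and respiratory chain lists crowd around 0.

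Most microglial identity genes fell after stimulation. Of 12 tested, 9 were called lower, against 2.58% of all genes, and the median log2 fold change was −1.59. Tmem119 (chr5:113793729-113800516, minus strand), which encodes a surface protein of microglia, was at 17.1, 15.9 and 15.9 CPM in sham slices and at 2.15, 1.12 and 1.12 CPM in stimulated slices. Its sham and stimulated values were far apart, and Tmem119 fell by 3.47 on the log2 scale (SE 0.36, adjusted p = 1.07e-07 by edgeR). Cx3cr1 (chr9:119901616-120069879, minus strand), the receptor for the neuronal chemokine fractalkine, was at 40.7, 42.0 and 40.0 CPM in sham and 7.62, 8.68 and 6.15 CPM in stimulated slices. These groups were tight and far apart (log2 fold change −2.46, SE 0.28, adjusted p = 4.04e-07 by edgeR). The purine receptor genes P2ry13 and P2ry12, through which microglia sense ADP, fell by 2.84 (SE 0.31) and 2.34 (SE 0.28). For P2ry12 the sham slices gave 21.5, 28.9 and 16.0 CPM and the stimulated slices 4.78, 6.08 and 2.60 CPM. Selplg, a selectin ligand, went from 24.7, 19.4 and 23.6 CPM to 4.09, 3.66 and 3.46 CPM.

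Other microglial markers changed less or did not pass the test. Csf1r, the survival receptor of microglia, fell by 0.81 (SE 0.18) and Olfml3 by 0.71 (SE 0.21). Sall1, the transcription factor that maintains microglial identity, was at 23.1, 21.4 and 18.8 CPM in sham and 14.9, 19 and 20.3 CPM in stimulated slices, with overlap. Siglech (log2 fold change −0.31) and Fcrls (−0.58) were not called either. The summed level of the 12 genes was 350, 366 and 304 CPM in sham slices and 158, 173 and 142 CPM in stimulated slices. Of 17 genes known from microglia around amyloid plaques, 5 were called higher, against 6.29% of all genes. Among these 5 were Cd68 (1.13), Cd63 (0.97), Gpnmb (0.99) and Csf1 (0.87), and the list's median was 0.38. Several further lowered genes among the 12 largest are known from myeloid cells: Nfam1 fell by 2.62 (SE 0.40), Gpr34 by 2.54 (SE 0.51) and Il21r by 2.54 (SE 0.48). Mlph, which links pigment granules to the actin motor, fell by 2.98 (SE 0.50).

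Markers of blood-borne myeloid cells stayed near 0 on both sides. None of the 11 genes of that list passed the low-count filter, and their summed level was 0.295 to 0.595 CPM in sham slices and 0.365 to 0.621 CPM in stimulated slices. Ly6g and Camp were at 0 in all 6 samples and Ccr2 was at 0 in all 3 stimulated slices. Among 9 lymphocyte markers 2 were tested and neither was called. Of 7 genes of border macrophages 5 were tested and edgeR called 0, with 2 at an unadjusted p under 0.05 and 1 called lower by DESeq2, with a summed level of 2.71 to 5.47 CPM in sham and 1.6 to 2.64 CPM in stimulated slices.

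**Figure D4:**
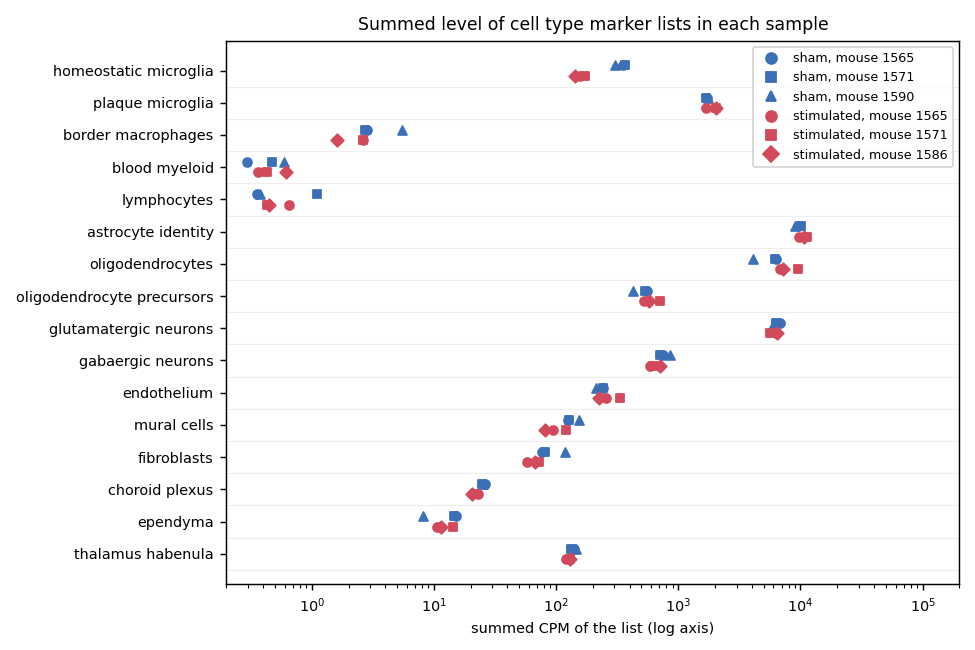
The plot gives the summed CPM (log axis) of each cell type marker list in the 6 samples, with blue marks for sham, red for stimulated slices and 1 symbol per mouse. Red and blue marks do not overlap for homeostatic microglia (142 to 173 against 304 to 366 CPM), nor for oligodendrocytes, where stimulated slices are higher, or for border macrophages, GABAergic neurons, mural cells, fibroblasts, choroid plexus and thalamus, where they are lower, while blood myeloid and lymphocyte lists sum to about 1 CPM or less in every sample.

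Of 21 astrocyte reactivity genes 12 were called higher, 1 lower and 8 not, with a median log2 fold change of 1.20, and of 13 identity genes edgeR called 0, with 3 at an unadjusted p under 0.05, while DESeq2 called 1 higher and 1 lower. Cd44, a hyaluronan receptor, went from 4.88, 3.92 and 3.73 CPM to 40.8, 40.7 and 56.0 CPM, with no overlap (log2 fold change 3.43, SE 0.42, adjusted p = 1.2e-06 by edgeR). Lcn2, which encodes lipocalin 2, rose by 2.60 (SE 0.50), Steap4 by 4.31 (SE 0.58) and the intermediate filament gene Vim by 1.01 (SE 0.26). Gfap, the standard astrocyte filament, was at 418, 419 and 325 CPM in sham and 502, 558 and 557 CPM in stimulated slices and was not called (log2 fold change 0.48, SE 0.21, adjusted p = 0.17 by edgeR). Hspb1, the member called lower, lost its call without the sham slice of Mouse1590 (0.0789) and with the replicate block (0.057), among other settings. Iigp1, also an interferon-induced gene, rose by 3.91 (SE 0.58).

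In the oligodendrocyte lineage, 3 of 9 precursor genes were called lower, with a list median of −0.16, and no mature myelin gene was called. The summed level of the precursor genes overlapped between sham (428.7 to 551.9 CPM) and stimulated slices (523.3 to 705.1 CPM), and 3 of the 9, among them Bcas1 (0.63) and Sox10 (0.49), had a log2 fold change above 0 without being called. Gpr17, a receptor of committed precursors, was at 17.5, 15.2 and 19.4 CPM in sham and 3.57, 4.53 and 3.60 CPM in stimulated slices. All stimulated slices were below all sham slices, and Gpr17 fell by 2.17 on the log2 scale (SE 0.32, adjusted p = 2.42e-05 by edgeR). Neu4, a sialidase of the same cells, fell by 1.95 (SE 0.33). Pdgfra, the receptor of early precursors, was at 59.5, 60.4 and 56.8 CPM in sham and 43.5, 50.7 and 49.6 CPM in stimulated slices and was not called. Cspg4 fell by 0.52 (SE 0.15) but was not called without the sham slice of Mouse1590 (0.144). Of 12 mature oligodendrocyte genes edgeR and DESeq2 called 0, with 1 at an unadjusted p under 0.05, and their summed level spanned 4054 to 6327 CPM in sham and 6760 to 9571 CPM in stimulated slices. Mbp and Mobp, both myelin genes, were called higher only in batch I alone, where 3 of the 12 were (adjusted p = 0.000367 and 0.000142 by edgeR). That fit rests on 2 mice, and these differed. The list's median log2 difference between the slices of a mouse was −0.17 in Mouse1565 and 0.43 in Mouse1571.

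Adhesion genes of endothelium rose while a few of its transport and surface genes fell. Of 9 tested activation genes 6 rose, with a median log2 fold change of 1.98. Icam1, an adhesion molecule for leukocytes, went from 11.8, 11.5 and 8.71 CPM to 39.1, 49.3 and 38.8 CPM, without overlap (log2 fold change 1.98, SE 0.24, adjusted p = 9.94e-07 by edgeR). Vcam1 rose by 1.77 (SE 0.25), and the selectin genes Sele and Selp by 4.29 (SE 0.71) and 4.43 (SE 0.87). Of 12 endothelial identity genes 2 rose and 3 fell, and 4 rose and 5 fell in batch I alone with the replicate block. Slco1a4, a blood-brain barrier anion transporter, was at 13.0, 14.2 and 15.5 CPM in sham and 2.27, 4.22 and 1.66 CPM in stimulated slices, with the groups apart (log2 fold change −2.44, SE 0.40, adjusted p = 9.17e-05 by edgeR). Itm2a fell by 1.25 (SE 0.22) and Ly6c1 by 1.49 (SE 0.35), and Ly6c1 was not called without the stimulated slice of Mouse1586 (0.0615). The junction gene Cdh5 rose by 1.84 (SE 0.51) and the glucose transporter gene Slc2a1 by 0.54 (SE 0.17). Both of these calls were lost without the sham slice of Mouse1571 (0.0605 and 0.0965) or of Mouse1590 (0.102 and 0.198), among other left-out samples, and Slc2a1 was not called with the replicate block (0.0919).

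A few genes of pericytes and meninges fell, and the meningeal calls were lost in several settings. Among 9 mural genes, Vtn fell by 1.19 (SE 0.22) and Notch3 by 1.05 (SE 0.26), and Notch3 was not called without the stimulated slice of Mouse1565 (0.0552). Among 8 fibroblast genes Col1a2 and Slc6a13 were called lower, and the median was −0.83. Col1a2 was at 2.24 and 2.56 CPM in the sham slices of Mouse1565 and Mouse1571 and at 7.47 CPM in that of Mouse1590, against 0.689, 1.05 and 0.443 CPM after stimulation. Its log2 fold change was −2.52 (SE 0.57, adjusted p = 0.00371 by edgeR), but Col1a2 was not called without the sham slice of Mouse1590 (0.0726), and Slc6a13 was not either (0.159). With the mouse as a replicate block neither was called (0.191 and 0.187), and Slc6a13 was not called without the stimulated slice of Mouse1565 (0.0714) or Mouse1586 (0.0731). The summed fibroblast level was 77.3 and 81.5 CPM in sham slices of Mouse1565 and Mouse1571 and 117.7 CPM in that of Mouse1590, against 58.3 to 72.6 CPM after stimulation, and the part of meningeal content in these falls was not tested. The transporter genes Slc6a20a and Slc22a8, also among the 12 most lowered, fell by 2.48 (SE 0.53) and 2.47 (SE 0.46), and Slc6a20a was not called with the replicate block (0.0618).

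Immediate early genes of neurons, the classical targets of synaptic activity, did not rise as a group. Of 17 tested, 2 were called higher and 2 lower, against 6.29% and 2.58% of all genes, and the median log2 fold change was −0.10. Fosb, an AP-1 subunit, was at 224, 179 and 242 CPM in sham slices and 101, 94.6 and 134 CPM in stimulated slices. It was lower in every stimulated slice, falling by 0.97 on the log2 scale (SE 0.24, adjusted p = 0.00847 by edgeR). Egr1, a zinc finger factor of plasticity, went from 423, 365 and 451 CPM to 259, 276 and 284 CPM, again with no overlap (log2 fold change −0.60, SE 0.15, adjusted p = 0.011 by edgeR). Fosb was not called without the stimulated slice of Mouse1571 (0.0549) and Egr1 was not without the sham slice of Mouse1590 (0.0608). The phosphatase gene Dusp1 rose by 0.56 (SE 0.15) and Egr3 by 0.42 (SE 0.13). Dusp1 was not called without the sham slice of Mouse1565 (0.0596), and Egr3 was not without the stimulated slice of that mouse (0.314), among other samples, or with the replicate block (0.0737). Without both slices of Mouse1565 none of the 17 was called, while batch I alone with the replicate block gave 4 called higher and 5 lower.

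Fos and Arc, canonical activity markers, overlapped between the sides. Fos was at 417, 480 and 382 CPM in sham and 332, 388 and 378 CPM in stimulated slices (log2 fold change −0.22, SE 0.19), and Arc, which controls glutamate receptor uptake at synapses, was at 340, 280 and 258 CPM against 268, 300 and 305 CPM (−0.01, SE 0.28). Npas4, a factor induced by calcium entry, was at 29.1, 28.3 and 30.7 CPM against 34.7, 31.7 and 34.6 CPM and was not called, although its 3 stimulated values lay above its 3 sham values. Among 18 later effectors of activity, 7 rose and 1 fell, against 6.29% and 2.58% of all genes, with a median of 0.17. Gadd45b, a stress and demethylation factor, went from 31.9, 35.4 and 22.2 CPM to 71.9, 76.8 and 91.1 CPM, all above sham (log2 fold change 1.42, SE 0.23, adjusted p = 9.47e-05 by edgeR). Gadd45g rose by 1.17 (SE 0.20), Pim1 by 1.29 (SE 0.26) and Nptx2, a pentraxin that gathers glutamate receptors, by 1.08 (SE 0.23). Nrn1 was the member called lower, at −0.43 (SE 0.13), and lost its call without the stimulated slice of Mouse1571 (0.142), among other samples, and with the replicate block (0.0583). Of 14 feedback genes of the MAP kinase route, 4 rose, against 6.29% of all genes. Dusp2 rose by 2.35 (SE 0.32), Dusp10 by 1.07 (SE 0.20) and Spry2 by 0.75 (SE 0.15).

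The receptors that BD10-2 targets and their ligands did not pass the test in this comparison. Ntrk2, which encodes TrkB, was at 643, 668 and 668 CPM in sham and 571, 632 and 602 CPM in stimulated slices (log2 fold change −0.13, SE 0.10, adjusted p = 0.459 by edgeR). Ntrk3, which encodes TrkC, was at 450, 471 and 417 CPM against 443, 356 and 328 CPM (−0.25, SE 0.16, adjusted p = 0.38 by edgeR). Bdnf overlapped between the groups, at 43.2, 43.0 and 33.0 CPM in sham and 54.2, 37.8 and 35.1 CPM in stimulated slices (0.09, SE 0.17). Of the 11 tested members of the neurotrophin list edgeR called 0, with 1 at an unadjusted p under 0.05, and DESeq2 and the 20 other ways of running the test also called 0.

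Of 76 genes in the synaptic, channel and neuronal identity lists, 7 were called lower (9.21%, against 2.58% of all genes) and 0 higher, with log2 fold changes between −0.64 and −0.30. In batch I alone with the replicate block, 7 of 17 presynaptic and 5 of 13 GABAergic genes were called lower, where the main test called 2 and 1. Of 19 postsynaptic genes 1 fell, Gria4 (−0.58, SE 0.18), which encodes an AMPA receptor subunit. Of 17 presynaptic genes 2 fell, among them Syt1 (−0.47, SE 0.13), the calcium sensor of vesicle release. Of 18 ion channels 2 fell, and Kcna2, an axonal potassium channel, was at 205, 210 and 259 CPM in sham and 134, 149 and 167 CPM in stimulated slices. The groups of Kcna2 were apart, with a log2 fold change of −0.58 (SE 0.12, adjusted p = 0.00172 by edgeR). Scn1a, the sodium channel gene called lower, changed by −0.44 (SE 0.14). Among identity genes Neurod6 (−0.64, SE 0.16) of glutamatergic and Gad2 (−0.53, SE 0.16) of GABAergic neurons fell, 1 of 9 and 1 of 13 tested. Without the sham slice of Mouse1590, Gria4 (0.241), Syt1 (0.152), Scn1a (0.249) and Gad2 (0.0889) were not called by their edgeR adjusted p, nor were Gria4 (0.0966) and Scn1a (0.0656) with the replicate block. The medians of the 5 lists lay between −0.35 and −0.03, and of 17 genes of hippocampal subfields edgeR and DESeq2 called 0, with 1 at an unadjusted p under 0.05. Of 7 markers of the adjoining thalamus and habenula, Lef1 and Calb2 were called lower, and neither was called with the replicate block (0.108 and 0.124).

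Some genes of stress programmes rose, and their counts stand against 6.29% of all genes called higher. Of 14 antioxidant and metallothionein genes 6 were called higher and all 14 had a log2 fold change above 0. Hmox1, which breaks down haem, was at 3.84, 3.92 and 2.76 CPM in sham and 41.6, 49.3 and 39.6 CPM in stimulated slices. Stimulated slices held roughly the same level in all 3 mice, well above sham (log2 fold change 3.61, SE 0.50, adjusted p = 8.92e-06 by edgeR). Slc7a11, the cystine transporter, rose by 2.15 (SE 0.27) and Txnrd1 by 1.39 (SE 0.16). Among 13 genes of the unfolded protein and integrated stress responses 5 rose, including Atf4 (0.88, SE 0.16) and Trib3 (2.60, SE 0.59), while 2 were called without both slices of Mouse1571 and 8 in batch I alone with the replicate block. Of 12 heat shock genes 3 rose, with Hspa1a at 1.02 (SE 0.22), and 1 was called lower, Hspb1 (−0.78). Of 21 hypoxia and glycolysis genes 3 rose, Hk2 (1.68, SE 0.27), Pfkfb3 (0.85, SE 0.17) and Slc2a1, and the list's median was −0.02. Myc (1.72, SE 0.23), Cdkn1a (1.11, SE 0.26) and Pcna (0.67, SE 0.13) were the 3 of 12 cell cycle genes called, and all were higher. Cdkn1a was not called without the sham slice of Mouse1590 (0.06). Of 14 cholesterol genes, Insig1 (0.44) and Mylip (0.77) rose, and Insig1 was not called without the sham slice of Mouse1590 (0.0636), among other samples, or with the replicate block (0.0807). Of 19 nuclear and 13 mitochondrial genes of the respiratory chain edgeR and DESeq2 called 0, with 0 at an unadjusted p under 0.05. In batch I alone with the replicate block, 3 of the 13 mitochondrial genes were called higher and 2 lower.

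Responses in other groups of mice were set beside these, from the same fit. No samples are shared between the comparisons. Stimulation called 2397 genes (12.3%) in wild-type mice given vehicle and 4453 (22.9%) in T41B mice given BD10-2, where 4 and 5 samples a side entered against 3 here. Of the 1225 genes called higher here, 953 were called higher in vehicle-treated wild-type mice, which is 77.8% of those here and 59.6% of the 1599 there, and 1088 in T41B mice given BD10-2 (88.8% of those here and 41.9% of the 2598 there). Of the 502 called lower, 289 were called lower with vehicle (57.6% of those here and 36.2% of 798) and 369 in T41B mice (73.5% and 19.9% of 1855). None was called in the opposite direction. The list median of interferon-induced genes was 3.25 here, 3.19 with vehicle and 4.18 in T41B mice, and that of homeostatic microglia was −1.59, −1.38 and −1.29. Differences between list medians were not tested.

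**Figure D5:**
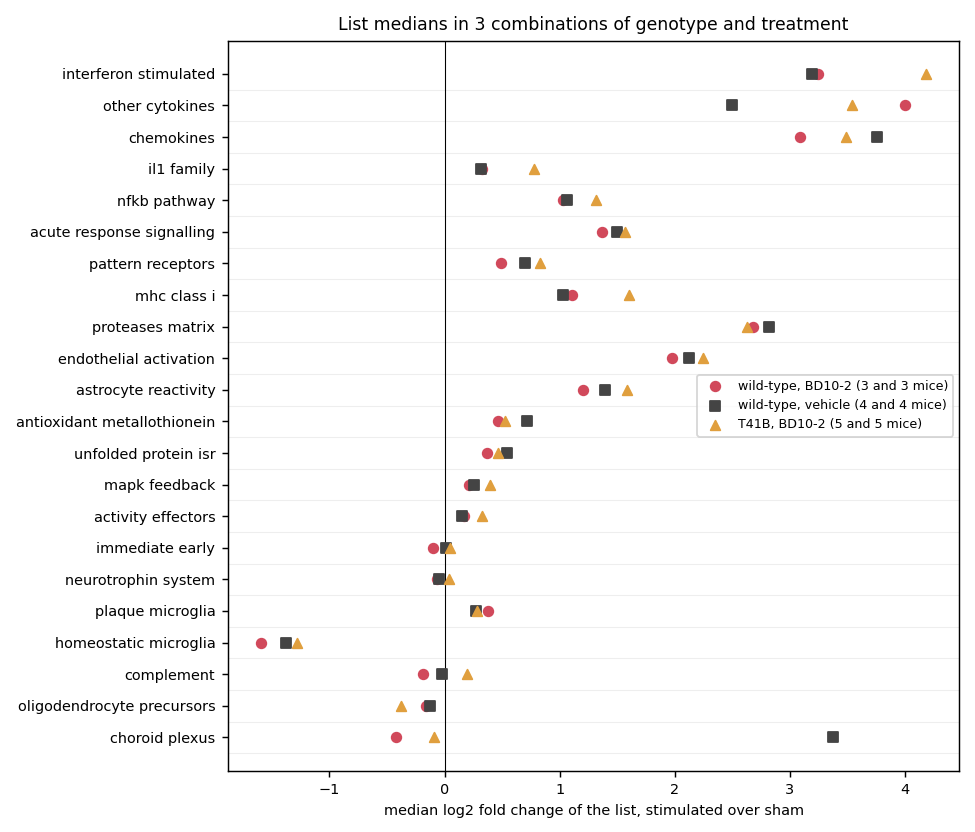
Each row of the plot is a gene list and each mark its median log2 fold change of stimulated over sham slices, in wild-type mice given BD10-2 (red circles), wild-type mice given vehicle (black squares) and T41B mice given BD10-2 (orange triangles). The choroid plexus list is the widest apart in this plot, at −0.42 for BD10-2 and 3.38 for vehicle in wild-type mice.

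The difference between responses was tested directly, as an interaction, and gave no call. Against the vehicle response 0 of 19478 genes (0%) passed, with 337 at an unadjusted p under 0.05 and a smallest edgeR adjusted p of 0.9999, and DESeq2 also called 0. Against the response of T41B mice given BD10-2 again 0 (0%) passed, with 846 at an unadjusted p under 0.05, while DESeq2 called 20. The batch labels each hold a single treatment, so in the first of these tests batch and treatment cannot be told apart. Choroid plexus genes, which mark the secretory tissue beside the hippocampus, were tested at 10 of 10 and not called here, with a summed level of 24.9 to 26.4 CPM in sham and 20.7 to 23.1 CPM in stimulated slices, whereas all 10 were called higher with vehicle. Most of that sum was Kl, at 17 to 20.4 CPM, and Prlr, at 1.45 to 5.03 CPM, over the 6 samples, so it describes these genes more than the tissue. The transthyretin gene Ttr, the most abundant product of that tissue, was at 0.256, 0 and 1.19 CPM in sham and 0.0811, 0.372 and 0.0295 CPM in stimulated slices here. None of the 10 differed between the responses at an adjusted p under 0.05.

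Genes among those with the smallest p in each difference are given by their group means. Plk1, a kinase of cell division, averaged 1.03 ± 0.158 CPM in sham and 2.12 ± 0.298 CPM in stimulated slices here (SD, n = 3), against 1.19 ± 0.221 and 1.06 ± 0.368 CPM with vehicle (SD, n = 4). Thus the mean of Plk1 was higher after stimulation here but not with vehicle, and the difference of responses did not pass after adjustment. Ifi203, an interferon-induced DNA sensor, averaged 6.04 ± 0.144 and 11.7 ± 0.794 CPM here (SD, n = 3), against 2.32 ± 0.534 and 34.5 ± 15.6 CPM in T41B mice given BD10-2 (SD, n = 5), with an edgeR adjusted p of 0.083 for the difference. Rnf180, a ubiquitin ligase, averaged 10.4 and 14.2 CPM here and 10.7 and 37.0 CPM in T41B mice (edgeR adjusted p = 0.0944). DESeq2 called both, at adjusted p of 8.19e-05 for Ifi203 and 0.00193 for Rnf180.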

How the data were processed

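Expected counts per gene, estimated by RSEM, were deposited by the authors as 1 table of 55421 genes. Per the submitters' processing notes, the tools were cutadapt 1.8.1, STAR 2.7.6a, RSEM 1.3.1, featureCounts 1.6 and SAMtools 1.11 with GRCm38.p6 (mm10). A stranded kit with removal of ribosomal RNA was used on 200 ng of total RNA, per the labels' protocols. The strand setting and annotation release are not given in the sources used here, so reads of overlapping or antisense genes may be mixed, and near-identical genes share reads. Gene positions are those of GENCODE on GRCm38.

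Counts were added over libraries of the same mouse and stimulation, rounded to whole numbers, filtered (filterByExpr, minimum count 10), scaled by TMM and tested with edgeR 4.0.16 (R 4.3.3), by the quasi-likelihood F test over all 32 samples with a coefficient per group. P-values were adjusted over 19478 genes by Benjamini-Hochberg, and a gene was called under 0.05. Differences of responses were contrasts of the same fit. CPM are TMM-scaled, SE is the fold change over the root of F, and a fold against samples within 3 counts is a lower bound. DESeq2 1.42.0 and limma 3.58.1 were alternatives. The test was checked on simulated counts.

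Slices with the same number come from the same mouse by the labels, which 1 sham library of Mouse1565 may not match. Over 16087 genes, deviations from the group mean correlated at 0.191 (Mouse1565) and 0.296 (Mouse1571) within a mouse, against −0.522 to 0.496 between mice. The members and the 48 gene lists were chosen with earlier results of these data known. Named were the 12 called genes in each direction with the largest fold change among those averaging at least 1 CPM with groups apart, leaving out predicted genes, small RNAs and pseudogenes. For each list up to 4 called members a direction were taken by adjusted p, otherwise the 2 highest in CPM, and for response differences the genes with the smallest p. Il1r1, Il33, Il6, Il11, Stat2, Irf9, Npas4, Rel, Sall1, Pdgfra and some other list members were added after their values were seen. Some items are not reported here.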

Additional observations from a re-analysis of the deposited data

How the results depend on the processing

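Of 166 genes followed through the alternatives, the 146 called after stimulation kept their direction in every one, and 6 of the 20 that were not called changed sign in at least 1. Leaving out 1 sample gave 915 to 1306 genes called, 722 to 1042 of them higher and 193 to 373 lower. The lowest counts came without the sham slice of Mouse1590. Without both slices of Mouse1565, 758 were called (591 higher, 167 lower), and without Mouse1571, 890 (699 and 191); fewer samples entered these tests. The paired analysis, with the mouse as a replicate block, called 1286 (913 higher, 373 lower), of which 1092 were among the 1727. Batch I alone with the replicate block, a fit on 2 mice, called 3000 (1270 lower), and voom with a random mouse block called 3117 (1310 lower). Without a low-count filter 296 were lower. The difference from the T41B response gave 20 calls with DESeq2 (1 higher, 19 lower), 6 with a batch covariate (1 and 5) and 2 without a filter (both lower); the cause was not tested. A count of 3, the limit used for low genes, was worth 0.059 to 0.186 CPM in these samples.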

Other observations

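Further gene families outside the lists were looked at after their values were seen, so their counts are descriptions. Guanylate-binding proteins, GTPases that attack the vacuoles of pathogens, had 7 of 10 tested members called higher after stimulation (median log2 fold change 2.40). Of 7 immunity-related GTPases all 7 were called higher (median 3.18), as were 7 of 8 Schlafen genes (3.53) and 7 of 12 genes of the Ifi2 group of DNA sensors (3.77), and near-identical copies in these families share reads. Among TNF ligands and receptors 9 of 25 were called higher. These counts stand against 6.29% of all genes. Of 375 Zfp zinc finger genes 23 were called higher and 2 lower, and of 38 proteasome genes 2 were called higher. Of 76 ribosomal protein genes edgeR called 0.

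Single genes among the calls were also picked after their values were seen. Gbp5 was at 1.73, 1.15 and 1.62 CPM in sham slices and 44.4, 49.5 and 53.0 CPM in stimulated slices. Cd274, which encodes the checkpoint ligand PD-L1, went from 3.66, 3.86 and 3.73 CPM to 56.5, 76.5 and 81.8 CPM. Gdf15, a stress hormone of the TGF-beta family, went from 0.748, 0.679 and 0.325 CPM to 9.77, 24.4 and 9.54 CPM. The groups were apart for all 3 genes. Csf3r, the granulocyte colony-stimulating factor receptor, was lower, at 4.96, 3.71 and 3.79 CPM against 1.09, 1.12 and 1 CPM, while the gene of its ligand, Csf3, was called higher.

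The most negative fold change among called genes belonged to the small nucleolar RNA Rnu3a, which has 2 identifiers at nearly the same place in the annotation. The entry ENSMUSG00000065870 was at 2.01, 7.10 and 6.28 CPM in sham slices and at 0 in all 3 stimulated slices. The other entry, ENSMUSG00000106147, was at 3.44, 0 and 1.03 CPM in sham slices and 4.22, 7.63 and 5.7 CPM after stimulation.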
